A study of Mus musculus with 4 samples.

Results

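Messenger RNA of 44 myeloid lectin, Fc, scavenger and inhibitory receptors, with a few pan-leukocyte surface proteins and costimulatory ligands, was measured in cultured aortic smooth muscle cells, which contract the arterial wall. Each gene was taken from the array rows annotated with its symbol alone, and all 44 of the 44 symbols sought had exactly 1 such row among the 22180 genes measured. The knockout cells came from SM22α-Cre(+)Mmp14(fl/fl)Apoe(−/−) mice and the control cells from SM22α-Cre(−)Mmp14(fl/fl)Apoe(−/−) mice, with 2 arrays in each group. All mice therefore carried the floxed Mmp14 alleles, lacked Apoe and had eaten a Western diet for 3 months. The Cre was driven by the promoter of SM22α (Tagln), a smooth muscle protein, so deletion of Mmp14 was directed to cells that use this promoter. The cells were released from thoracic aorta, stripped of adventitia, and grown for 5 days with serum. The sources used here do not state the ages or sexes of the mice. The comparison addressed which transcripts differ in such cultures when smooth muscle MT1-MMP, the membrane-anchored collagenase that Mmp14 encodes, is deleted.

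The targeted gene Mmp14 had log2 values of 8.27 and 8.19 in the knockout arrays, against 8.71 and 9.05 in the control arrays, a difference of -0.65 (SE 0.17; limma, adjusted p = 0.319). Where the probes of its row lie relative to the floxed exons was not available, so the row is an incomplete check of the genotype. The source of the remaining Mmp14 signal was not tested. Tagln itself had 10.41 and 9.81 in the knockout arrays, against 10.46 and 9.77 in the control arrays, and Apoe, disrupted in all mice, had 4.80 and 4.45 in the knockout arrays, against 4.97 and 5.0 in the control arrays.

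Myeloid cells read their surroundings through paired sets of surface receptors. Activating receptors such as the IgG Fc receptors, the Dectin group of C-type lectins and TREM2 signal through immunoreceptor tyrosine-based activation motifs (ITAMs), carried by the adaptors FcRγ (Fcer1g) and DAP12 (Tyrobp) or by the receptor itself, and engage the kinase Syk. Inhibitory receptors such as FcγRIIB, PIR-B, CD300a and LAIR1 carry inhibitory motifs (ITIMs) that recruit the phosphatases SHP-1 and SHIP-1, whereas CD200R signals through other docking proteins. Scavenger and efferocytosis receptors take up modified lipoproteins and dying cells, and in the Apoe-null aorta they are known from the macrophages and foam cells of plaques. Smooth muscle cells that have taken up lipid can also express some macrophage genes.

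Knockout cultures had higher values than control cultures for most of these receptors, but no gene passed the genome-wide test. Of the 44 genes, 39 had a higher mean in the knockout arrays, and for 32 both knockout arrays lay above both control arrays. Over the 22180 genes measured, 47.2% had a higher mean and 18% lay wholly above. The median log2 difference, knockout minus control, was 1.06 over the 44 genes and -0.01 over all genes measured. The largest differences without overlap between the groups were those of Cd200r1, Mrc1, Clec12a, Folr2, Ptprc and Adgre1, from 2.35 to 1.74.

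The test covered 12550 genes with a mean log2 level of at least 3.02, the median of all row means, and 38 of the 44 genes passed this filter. Of the 38, only Clec4a2 had a control mean below the filter level, at 2.98. At an adjusted p under 0.05 the count was 0 of 12550 by limma (0% of the genes tested), and so 0 of the 38, whose smallest adjusted p was 0.137 (limma). At an unadjusted p under 0.05, 24 of the 38 were higher and 0 were lower, where 4.89% of all genes tested were higher and 6.78% lower. Among the 38, 37 were higher (41.7% of the genes tested), 30 lay wholly above the controls (16.7% of the genes tested), 1 lay wholly below (27.6% of the genes tested) and 7 overlapped. Of the 30 wholly above, 22 were higher by at least 1 log2 unit (1.79% of the genes tested). The median difference of the 38 was 1.15, against -0.05 over all genes tested. With 2 arrays against 2, a two-sided exact permutation test of a single gene cannot give a p below 0.333. In cultures measured in bulk, a change in the number of cells of a type and a change in RNA per cell cannot be told apart.

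**Figure D1:**
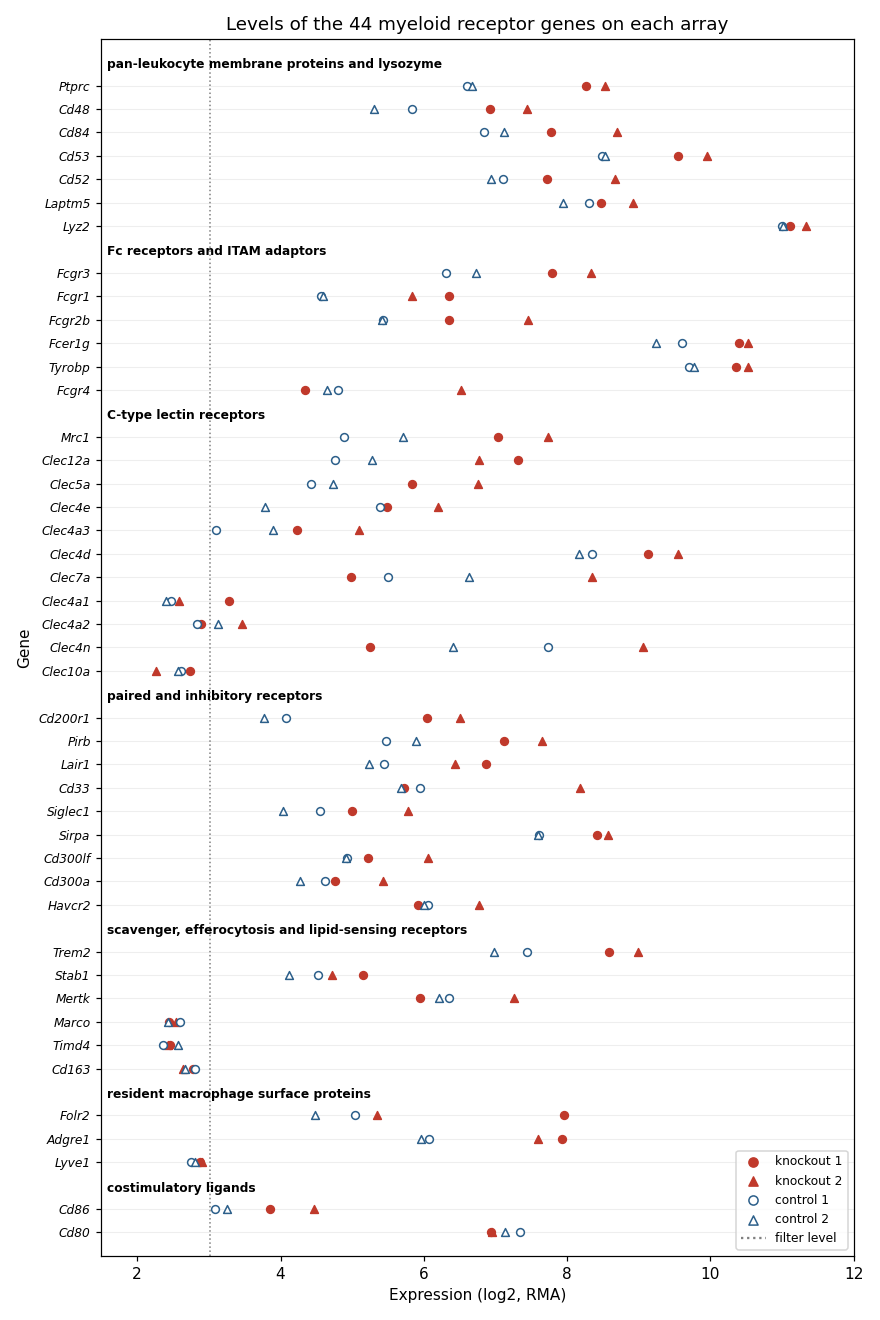
Log2 expression (horizontal axis, RMA) of the 44 genes on each of the 4 arrays, grouped by role. Filled red symbols are knockout arrays, open blue symbols control arrays, circles replicate 1 and triangles replicate 2, and the dotted line is the filter level of 3.02. For 32 genes both red symbols lie to the right of both blue symbols.

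The promoters of these genes are given as description. The genes were chosen as myeloid receptors, so shares of myeloid motifs above those of all promoters cannot bear on the knockout difference. A link between motif and difference was not tested. RefSeq promoter sequences (assembly GRCm38.p6, 250 bases before to 50 after the start) matched 34 of the 44 genes by symbol, with 39 promoters in all. The hexamer GAGGAA, on either strand, is the PU box bound by PU.1 (Spi1), the ETS factor of myeloid cells. It was found in 26 of these 39 promoters (66.7%) and in 28.3% of all 32851 promoters of the same length. The RUNX hexamer TGTGGT, on either strand, was in 41% of the 39 (16 promoters) and in 16.8% of all, and the C/EBP pattern TTGCNNAA in 17.9% (7 promoters) and 10.8% of all. The TATA hexamer TATAAA was in 20.5% (8 promoters) and 13.6% of all. A match is a run of letters and not a measured binding site, and promoters of 1 gene can share sequence. The promoters below belong to the matched genes Mrc1, Clec12a, Ptprc and Clec5a, which had the largest differences at an unadjusted p under 0.05, and to Lyz2, whose difference was 0.22. Each is written 5′ to 3′ on the gene's own strand, with GAGGAA or its reverse complement in capitals.
Mrc1 (GRCm38.p6, chr2:14229164-14229463, plus strand): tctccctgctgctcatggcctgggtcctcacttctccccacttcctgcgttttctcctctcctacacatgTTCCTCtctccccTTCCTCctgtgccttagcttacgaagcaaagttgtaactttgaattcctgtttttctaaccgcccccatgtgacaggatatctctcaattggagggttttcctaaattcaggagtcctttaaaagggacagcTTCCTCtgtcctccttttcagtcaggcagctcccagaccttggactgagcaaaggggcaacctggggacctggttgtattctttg
Clec12a (GRCm38.p6, chr6:129349994-129350293, plus strand): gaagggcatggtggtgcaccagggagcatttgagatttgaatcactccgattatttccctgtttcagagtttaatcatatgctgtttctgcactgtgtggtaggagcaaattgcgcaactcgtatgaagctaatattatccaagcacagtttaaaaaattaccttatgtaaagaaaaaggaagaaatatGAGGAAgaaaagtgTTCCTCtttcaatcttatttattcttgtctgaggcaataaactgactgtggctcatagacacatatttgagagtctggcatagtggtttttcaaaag
Ptprc (GRCm38.p6, chr1:138175256-138175555, minus strand): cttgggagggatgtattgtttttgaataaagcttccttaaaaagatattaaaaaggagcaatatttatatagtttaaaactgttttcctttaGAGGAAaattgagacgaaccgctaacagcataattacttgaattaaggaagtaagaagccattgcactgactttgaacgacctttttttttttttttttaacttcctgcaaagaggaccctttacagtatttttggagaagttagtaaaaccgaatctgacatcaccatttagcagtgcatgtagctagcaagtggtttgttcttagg
Clec5a (GRCm38.p6, chr6:40585756-40586055, minus strand): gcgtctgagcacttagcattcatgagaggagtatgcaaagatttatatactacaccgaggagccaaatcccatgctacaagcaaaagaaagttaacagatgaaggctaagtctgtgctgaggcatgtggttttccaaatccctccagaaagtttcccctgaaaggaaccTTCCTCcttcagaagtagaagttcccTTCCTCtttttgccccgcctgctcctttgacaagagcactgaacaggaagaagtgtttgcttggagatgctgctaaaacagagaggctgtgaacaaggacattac
Lyz2 (GRCm38.p6, chr10:117282223-117282522, minus strand): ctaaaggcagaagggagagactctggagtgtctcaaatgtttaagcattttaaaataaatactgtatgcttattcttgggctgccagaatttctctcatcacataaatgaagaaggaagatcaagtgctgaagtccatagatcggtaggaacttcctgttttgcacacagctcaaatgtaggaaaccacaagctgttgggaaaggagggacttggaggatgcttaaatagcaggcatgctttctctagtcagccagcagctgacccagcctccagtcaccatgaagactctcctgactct
Mrc1 held 3 such matches, Clec12a and Clec5a 2 each, this start of Ptprc 1 and Lyz2 0. The other Ptprc start in the table had 0. Pirb and Clec4d also held 3 each, while Folr2, whose difference was 1.89, held 0 at both of its starts. Cd48 (1.62), Fcgr2b (1.48) and Fcer1g (1.03), all wholly above the controls, held 0 as well. Matches also stood in genes that overlapped between groups or were too dim to test, with 2 in Clec4a1 and 1 each in Havcr2, Fcgr4, Cd33, Marco and both starts of Clec7a.

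The pan-leukocyte proteins were higher without overlap in all 7 genes, 5 of them at an unadjusted p under 0.05. Ptprc, which encodes CD45, the tyrosine phosphatase found on all nucleated blood cells, had log2 values of 8.26 and 8.53 in the knockout arrays, against 6.60 and 6.68 in the control arrays. Its difference was 1.75 (SE 0.16, 95% interval 1.34 to 2.17; limma, adjusted p = 0.137), or 3.37-fold, and the gap between the groups far exceeded the spread within them. Cd48, a ligand of the SLAM family, had 6.92 and 7.45 in the knockout arrays, against 5.83 and 5.30 in the control arrays. Cd84, a SLAM receptor that binds itself, had 7.78 and 8.69 in the knockout arrays, against 6.84 and 7.12 in the control arrays. The differences were 1.62 (SE 0.28) for Cd48 and 1.25 (SE 0.34) for Cd84, whose genes lie close together on chromosome 1. Cd53, a leukocyte tetraspanin, had 9.55 and 9.95 in the knockout arrays, against 8.49 and 8.53 in the control arrays, a difference of 1.24 (SE 0.18). Cd52, a small lipid-anchored glycoprotein, had 7.72 and 8.67 in the knockout arrays, against 7.10 and 6.94 in the control arrays, a difference of 1.18 (SE 0.34). The knockout arrays were farther from each other than the lower of them was from the higher control array.

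The remaining pan-leukocyte genes had smaller differences. Laptm5, a lysosomal membrane protein of blood cells, had 8.47 and 8.91 in the knockout arrays, against 8.30 and 7.94 in the control arrays, a difference of 0.57 whose 95% interval of -0.03 to 1.16 included 0. Lyz2, lysozyme M, had 11.11 and 11.34 in the knockout arrays, against 11.0 and 11.01 in the control arrays, and its difference of 0.22 had an interval of -0.17 to 0.62. All 4 Lyz2 values were within 0.34 of the control mean, although the knockout arrays were the higher ones.

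The adaptors and Fc receptors were higher in all 6 genes, 5 of them without overlap. Fcer1g, the common γ chain of the activating Fc receptors, had 10.40 and 10.52 in the knockout arrays, against 9.61 and 9.24 in the control arrays, a difference of 1.03 (SE 0.18; limma, adjusted p = 0.212). Tyrobp, the DAP12 adaptor of TREM2 and CLEC5A, had 10.36 and 10.53 in the knockout arrays, against 9.71 and 9.77 in the control arrays, a difference of 0.71 (SE 0.14). Both adaptors thus lay wholly above the controls. Fcgr1, the high-affinity IgG receptor, had 6.35 and 5.84 in the knockout arrays, against 4.56 and 4.60 in the control arrays, a difference of 1.52 (SE 0.21; limma, adjusted p = 0.161). Fcgr3, an activating low-affinity IgG receptor, had 7.79 and 8.33 in the knockout arrays, against 6.30 and 6.73 in the control arrays, a difference of 1.54 (SE 0.26). Fcgr2b, the inhibitory IgG receptor, had 6.36 and 7.46 in the knockout arrays, against 5.43 and 5.42 in the control arrays, a difference of 1.48 (SE 0.38). An activating and the inhibitory receptor thus both lay wholly above the controls.

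Fcgr4, an activating receptor for IgG2 subclasses in mouse, did not follow its neighbours. Its values were 4.34 and 6.52 in the knockout arrays, against 4.80 and 4.65 in the control arrays, so that knockout array 1 was the lowest of the 4 and knockout array 2 the highest. The difference of 0.70 had a 95% interval of -1.19 to 2.60. Fcgr2b, Fcgr4 and Fcgr3 are close neighbours on chromosome 1 and related in sequence, and how far the array's probes separate related genes was not tested.

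The C-type lectins held some of the largest differences and also the widest scatter. Of 11 genes, 9 passed the filter, all 9 had a higher mean, and 6 of the 9 lay wholly above the controls. Mrc1, the mannose receptor CD206, had 7.03 and 7.73 in the knockout arrays, against 4.89 and 5.71 in the control arrays. Its difference was 2.08 (SE 0.38, 95% interval 1.10 to 3.06; limma, adjusted p = 0.218), or 4.22-fold. Clec12a, an ITIM-bearing receptor for uric acid crystals, had 7.31 and 6.77 in the knockout arrays, against 4.77 and 5.28 in the control arrays, a difference of 2.02 (SE 0.28; limma, adjusted p = 0.161), or 4.05-fold. The groups were separated by more than 1 log2 unit in both genes.

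Clec5a, a DAP12-coupled receptor known for binding dengue virus, had 5.83 and 6.75 in the knockout arrays, against 4.42 and 4.74 in the control arrays, a difference of 1.71 (SE 0.34). Clec4d, the FcRγ-coupled lectin MCL, had 9.12 and 9.55 in the knockout arrays, against 8.35 and 8.16 in the control arrays, a difference of 1.08 (SE 0.20). Clec4e, the neighbouring gene, which encodes Mincle, a receptor for mycobacterial glycolipid and for dead cells, had 5.48 and 6.20 in the knockout arrays, against 5.39 and 3.79 in the control arrays. Its control arrays were far apart, and the higher of them lay just below the lower knockout array. The Clec4e difference of 1.25 was 0.45 without control replicate 2 and 2.05 without control replicate 1.

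Clec4n and Clec7a, the Dectin-2 and Dectin-1 receptors for fungal mannans and β-glucans, split the knockout arrays. Clec4n had 5.25 and 9.05 in the knockout arrays, against 7.73 and 6.41 in the control arrays: its lowest and its highest value were both knockout arrays. Clec7a had 4.98 and 8.35 in the knockout arrays, against 5.50 and 6.63 in the control arrays, in the same order of knockout arrays. The differences were 0.08 (95% interval -3.36 to 3.52) for Clec4n and 0.60 (95% interval -2.44 to 3.63) for Clec7a. Clec4n lies beside Clec4d in the genome, yet Clec4d was higher in both knockout arrays.

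The Clec4a genes encode DCIR and its relatives, of which DCIR (Clec4a2) is inhibitory. Clec4a3 had 4.23 and 5.09 in the knockout arrays, against 3.10 and 3.89 in the control arrays, a difference of 1.17 (SE 0.40). Clec4a2 had 2.89 and 3.47 in the knockout arrays, against 2.83 and 3.12 in the control arrays and overlapped, with a difference of 0.20. Clec4a1 had 3.28 and 2.58 in the knockout arrays, against 2.48 and 2.40 in the control arrays and was not tested, although its knockout arrays lay above the controls. The separation of these near relatives by the array was not tested. Clec10a, the galactose-binding lectin MGL1, had 2.74 and 2.27 in the knockout arrays, against 2.61 and 2.57 in the control arrays, all below the filter level.

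**Figure D2:**
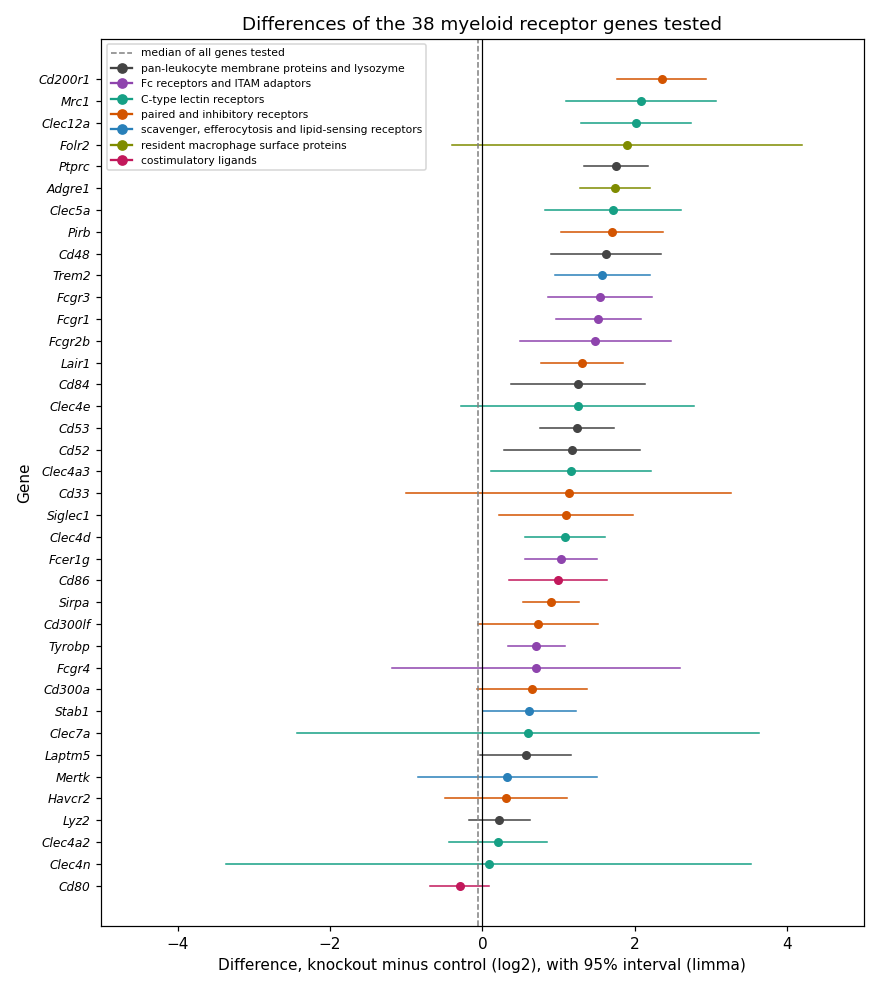
Difference in log2 expression (horizontal axis, knockout minus control) of the 38 genes tested, coloured by role, with 95% intervals from limma. The solid line is 0 and the dashed line the median of all genes tested (-0.05). The intervals of 24 genes exclude 0, from Cd200r1 at 2.35 to Stab1 at 0.61, and the point of Cd80 alone lies below 0.

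All 9 paired and inhibitory receptors had a higher mean in the knockout arrays, 7 of them without overlap. Cd200r1, the inhibitory receptor for CD200, had 6.04 and 6.51 in the knockout arrays, against 4.07 and 3.78 in the control arrays. Its difference was 2.35 (SE 0.22, 95% interval 1.77 to 2.94; limma, adjusted p = 0.137), or 5.11-fold, and ranked 3 among the 12550 genes tested. Cd200 itself, a ligand made by many stromal cells, had 8.48 and 7.08 in the knockout arrays, against 8.21 and 7.92 in the control arrays and overlapped. Pirb, an ITIM receptor for MHC class I, had 7.12 and 7.65 in the knockout arrays, against 5.47 and 5.89 in the control arrays, a difference of 1.70 (SE 0.26; limma, adjusted p = 0.18). Lair1, the inhibitory receptor for collagens, had 6.87 and 6.43 in the knockout arrays, against 5.45 and 5.24 in the control arrays, a difference of 1.30 (SE 0.20; limma, adjusted p = 0.187). Both genes were separated by close to 1 log2 unit or more.

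Sirpa, the receptor for the "do not eat me" signal CD47, had 8.42 and 8.57 in the knockout arrays, against 7.61 and 7.60 in the control arrays, a difference of 0.89 (SE 0.14; limma, adjusted p = 0.187). Cd47 had 8.41 and 8.61 in the knockout arrays, against 7.92 and 8.07 in the control arrays, a difference of 0.51 (SE 0.15; limma, adjusted p = 0.356). Receptor and ligand were both wholly above the controls. Siglec1, the sialic acid receptor sialoadhesin, had 4.99 and 5.79 in the knockout arrays, against 4.56 and 4.03 in the control arrays, a difference of 1.09 (SE 0.34). Cd300lf and Cd300a, lipid-binding receptors of the CD300 family, had 5.23 and 6.06 in the knockout arrays, against 4.93 and 4.91 in the control arrays for Cd300lf, and 4.77 and 5.43 in the knockout arrays, against 4.62 and 4.27 in the control arrays for Cd300a. Their differences of 0.72 and 0.65 had intervals that reached just below 0, at -0.06 and -0.07.

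The other inhibitory receptors overlapped between groups. Cd33, a Siglec, had 5.72 and 8.18 in the knockout arrays, against 5.95 and 5.68 in the control arrays, so that a single knockout array stood apart. Its difference of 1.13 had an interval of -1.0 to 3.26. Havcr2, the TIM-3 receptor, had 5.92 and 6.77 in the knockout arrays, against 6.06 and 6.0 in the control arrays, a difference of 0.31 (95% interval -0.49 to 1.11).

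The scavenger and efferocytosis receptors fell into measured and dim genes. Trem2, the DAP12-coupled lipid receptor of plaque foam cells and microglia, had 8.58 and 8.99 in the knockout arrays, against 7.43 and 6.98 in the control arrays, a difference of 1.57 (SE 0.24, 95% interval 0.95 to 2.20; limma, adjusted p = 0.183), or 2.98-fold. Stab1, a scavenger receptor of macrophages and sinusoidal endothelium, had 5.15 and 4.72 in the knockout arrays, against 4.53 and 4.12 in the control arrays, a difference of 0.61 with an interval that began just above 0, at 0.004. Mertk, the kinase that takes up apoptotic cells through Gas6 and protein S, had 5.95 and 7.26 in the knockout arrays, against 6.35 and 6.21 in the control arrays and overlapped, with a difference of 0.32. Its ligand gene Gas6 had 9.46 and 8.18 in the knockout arrays, against 8.30 and 8.18 in the control arrays and overlapped. The haemoglobin scavenger receptor Cd163 had 2.78 and 2.64 in the knockout arrays, against 2.81 and 2.66 in the control arrays. Marco, a class A scavenger receptor, had 2.45 and 2.55 in the knockout arrays, against 2.59 and 2.43 in the control arrays. Timd4, the phosphatidylserine receptor TIM-4, had 2.46 and 2.43 in the knockout arrays, against 2.35 and 2.57 in the control arrays. All values of these last 3 genes were below the filter level, and no group stood apart.

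Among proteins of resident macrophages, Adgre1, the adhesion-family G protein-coupled receptor used as a macrophage marker, had 7.92 and 7.59 in the knockout arrays, against 6.08 and 5.96 in the control arrays. Its difference was 1.74 (SE 0.17, 95% interval 1.28 to 2.19; limma, adjusted p = 0.144), or 3.34-fold. Folr2, the folate receptor β, had 7.96 and 5.35 in the knockout arrays, against 5.04 and 4.48 in the control arrays, a difference of 1.89 (SE 0.88, 95% interval -0.40 to 4.19). Knockout array 1 set the size of the Folr2 value, which was 0.59 without knockout replicate 1 and 3.20 without knockout replicate 2. Lyve1, a hyaluronan receptor of lymphatic endothelium and of some arterial macrophages, had 2.88 and 2.90 in the knockout arrays, against 2.75 and 2.81 in the control arrays, all below the filter level.

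The costimulatory ligands of CD28 and CTLA-4 went opposite ways. Cd86 had 3.85 and 4.46 in the knockout arrays, against 3.08 and 3.25 in the control arrays, a difference of 0.99 (SE 0.24; limma, adjusted p = 0.295), with both knockout arrays above the controls. Cd80 had 6.93 and 6.95 in the knockout arrays, against 7.34 and 7.13 in the control arrays, a difference of -0.30 (95% interval -0.69 to 0.09), with both knockout arrays below. Cd80 was the only one of the 38 genes tested with a lower mean, and the difference between Cd86 and Cd80 was not tested.

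The spread between the knockout arrays was wide in these genes. The median absolute difference between the knockout arrays was 0.56 over the 38 genes and 0.19 over all genes tested, and between the control arrays 0.29 and 0.19. Knockout array 2 was the higher knockout array in 32 of the 38 genes, and array 1 in 6. The knockout arrays lay at least 2 log2 units apart, a size chosen after the values were seen, in 5 of the 38 genes. Clec4n, Clec7a, Cd33 and Fcgr4 were higher in array 2, as were 0.279% of the genes tested. Folr2 was higher in array 1, as were 0.159% of the genes tested. Beside Folr2, the genes higher in array 1 than in array 2 were Fcgr1, Clec12a, Lair1, Stab1 and Adgre1.

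**Figure D3:**
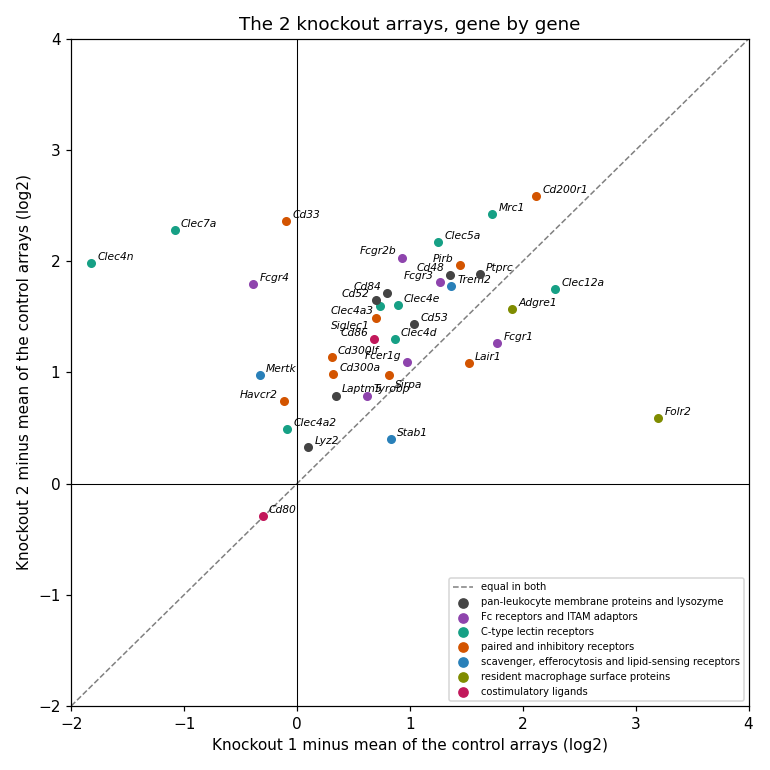
Each of the 38 genes tested by its log2 value on knockout array 1 (horizontal axis) and on knockout array 2 (vertical axis), each minus the mean of the control arrays, coloured by role. On the dashed line both knockout arrays are equal. Clec4n (-1.82 and 1.99) and Clec7a (-1.09 and 2.28) lie far to the upper left and Folr2 (3.20 and 0.59) to the right.

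Most genes of signalling proteins downstream of the receptors were higher with them. Of 18 measured ITAM and ITIM signalling genes, 17 had a higher mean, 16 lay wholly above the controls, 12 were higher at an unadjusted p under 0.05, and 0 passed the adjustment, with a median difference of 1.10. Blnk, a Syk substrate and adaptor, had 7.75 and 7.82 in the knockout arrays, against 6.13 and 6.08 in the control arrays, a difference of 1.68 (SE 0.13; limma, adjusted p = 0.12). Ptpn6, which encodes SHP-1, had 6.44 and 7.05 in the knockout arrays, against 5.02 and 5.32 in the control arrays, a difference of 1.57 (SE 0.26). Vav1, a guanine nucleotide exchange factor, differed by 1.60 (SE 0.29) and Hcst, the DAP10 adaptor, by 1.50 (SE 0.53). Genes of both the activating and the inhibitory branch were thus among the higher ones. The only lower one was Ptpn11, which encodes the related phosphatase SHP-2, at -0.32 and wholly below the controls. Syk itself, at 0.61 (SE 0.29), was narrowly separated, with 5.268 on knockout array 1 and 5.225 on control array 1.

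Other receptors of the same families were measured too. Of 43 further lectin, Siglec, CD300, LILR and SLAM receptors measured, 28 were tested, with 26 higher, 16 wholly above, 10 at an unadjusted p under 0.05 (all higher), 0 past the adjustment and a median difference of 0.60. Cd200r4, an activating relative of CD200R, had 7.69 and 8.0 in the knockout arrays, against 6.63 and 6.19 in the control arrays, a difference of 1.43 (SE 0.22). Cd300ld differed by 1.48, Ly9, a SLAM receptor, by 1.44 and Cd244a, another SLAM receptor, by 1.19. Of 17 other scavenger and efferocytosis receptors tested, 9 were higher and 8 lower, with a median of 0.03, and 4 were higher and 2 lower at an unadjusted p under 0.05. The separated ones with the largest differences were Msr1, the macrophage scavenger receptor, at 1.66 (SE 0.20), Cxcl16, a membrane chemokine that binds oxidised lipoprotein, at 1.18, Cd5l at 0.99 and Cd68 at 0.82. Of 11 ligands and bridging proteins tested, 8 were higher, 3 lower and 6 overlapped, with a median of 0.18, and 3 were higher at an unadjusted p under 0.05. Lgals3 differed by 0.75, Cd28 by 0.42 and Clu by -0.47.

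Macrophage markers were higher together with the receptors. The mean log2 level of 18 other macrophage markers was 7.18 and 7.42 in the knockout arrays, against 6.44 and 6.34 in the control arrays. Of the 17 tested, 17 had a higher mean (41.7% of the genes tested) and 16 lay wholly above (16.7% of the genes tested). At an unadjusted p under 0.05, 12 were higher (4.89% of the genes tested). Their differences ran from 0.10 to 1.57 over the 17 tested. Of the 38 receptor-set genes tested, 26 lay within that range of differences, 10 above it and 2 below it. The leading markers were Mpeg1, at 1.57, C1qa, at 1.55, Itgam, at 1.42, and Cd14, at 1.38. The part of these markers in the receptor differences was not tested. Macrophage transcripts were also measured in the controls, where Cd68 read 9.90 and 9.68.

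Markers of other blood cells were read on the same arrays. All 8 mast cell markers were below the filter level on every array. Of 10 neutrophil markers 7, of 10 T and NK cell markers 8 and of 5 B cell markers 4 were too dim to test. The mean level of the neutrophil list was 2.96 and 3.18 in the knockout arrays, against 2.90 and 2.95 in the control arrays. The T and NK cell list had mean levels of 2.88 and 3.06 in the knockout arrays, against 2.76 and 2.79 in the control arrays, and the B cell list 2.84 and 3.13 in the knockout arrays, against 2.77 and 2.89 in the control arrays. S100a8, on the neutrophil list, had 4.72 and 6.67 in the knockout arrays, against 4.96 and 5.43 in the control arrays and overlapped. Csf3r, on both the neutrophil and the macrophage list, was the only neutrophil marker tested that lay wholly above the controls, at 0.39. On the B cell list Cd22, a Siglec, differed by 1.01, with knockout array 2 apart. Cd79a, on the same list and too dim to test, lay wholly below the controls at -0.31. Of the 5 B cell markers measured, 3 had a higher mean. The 6 monocyte markers averaged 3.77 and 4.23 in the knockout arrays, against 3.68 and 3.84 in the control arrays, and their separated members, Ccr2 and F13a1, were dim. All 3 monocyte markers tested overlapped between groups. Plac8 (0.79) and Itgal (0.22) had a higher mean, and Ly6c2 (-0.55) a lower one. The 9 dendritic cell markers averaged 4.08 and 4.43 in the knockout arrays, against 3.74 and 3.98 in the control arrays. Of the 9, 4 were too dim to test, and the 5 tested had a median difference of 0.22. All 5 had a higher mean, 3 lay wholly above the controls and 2 overlapped. Only 1 was at an unadjusted p under 0.05, Irf8, a transcription factor of macrophages too, at 1.61.

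**Figure D4:**
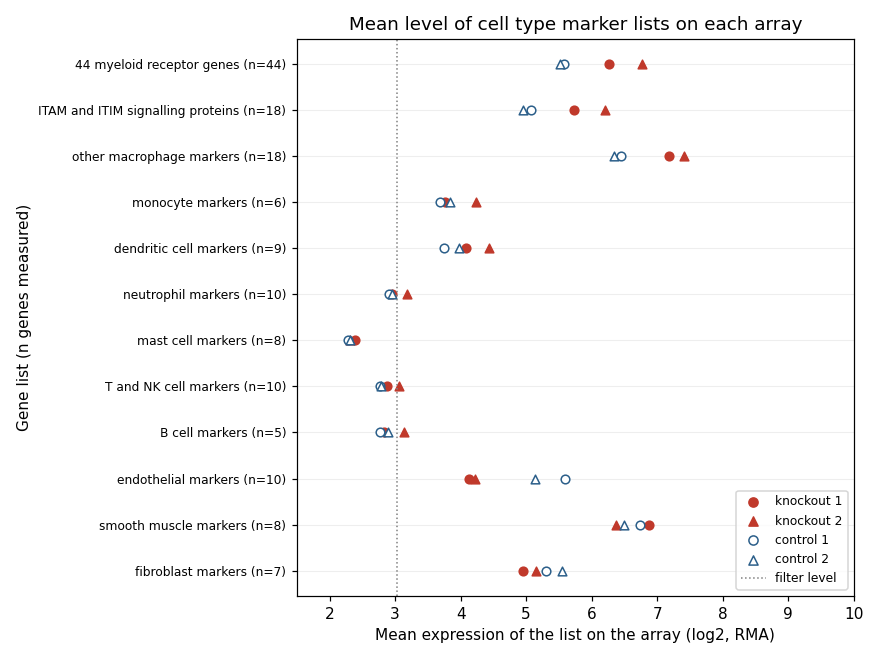
Mean log2 level (horizontal axis, RMA) of each list of marker genes on each array, with symbols as in the plot of levels and the number of genes measured after each name. The knockout arrays lie farthest to the right of the controls for the 44 receptor-set genes, the ITAM and ITIM signalling proteins and the other macrophage markers, and lie to the left for the endothelial and fibroblast markers, of which 3 of 9 and 3 of 6 tested were nonetheless higher. The mast cell markers lie below the filter level of 3.02.

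Endothelial markers had a lower mean level, and the mean levels of the smooth muscle list overlapped. The 10 endothelial markers averaged 4.13 and 4.22 in the knockout arrays, against 5.59 and 5.14 in the control arrays, led by Ptprb at -2.88 (limma, adjusted p = 0.104). Of the 9 tested, 6 were lower, all 6 wholly below the controls and 5 at an unadjusted p under 0.05, and 3 were higher: Kdr, at 0.32 and wholly above, and Vwf and Flt1, at 0.29 and 0.10 with overlap. Stab1 and Lyve1, which endothelial cells can also express, had the values given above. The 3 lymphatic endothelial markers measured averaged 5.45 and 5.39 in the knockout arrays, against 5.83 and 5.51 in the control arrays. Of these, Flt4 lay wholly below the controls at -0.80, Pdpn overlapped at 0.12 and Prox1 was too dim to test. The 8 smooth muscle markers averaged 6.87 and 6.37 in the knockout arrays, against 6.73 and 6.49 in the control arrays. Acta2, the smooth muscle actin that defines the labelled cell type, had 11.40 and 10.89 in the knockout arrays, against 11.34 and 11.05 in the control arrays. Of the 8 smooth muscle markers, all tested, 3 were higher and 5 lower, and 6 overlapped. Smtn, at -0.55 (SE 0.15), and Myocd, at -0.14 (SE 0.15), lay wholly below the controls. The 7 fibroblast markers averaged 4.96 and 5.15 in the knockout arrays, against 5.30 and 5.55 in the control arrays. Of the 6 fibroblast markers tested, 3 were higher and 3 lower, with a median difference of 0.04. Cd34 (-2.40) and Dpt (-1.51) lay wholly below the controls, Col15a1 (0.37) lay wholly above, and Lum (0.74) and Dcn (0.46) overlapped. The 7 proliferation genes measured averaged 5.58 and 6.85 in the knockout arrays, against 6.04 and 6.66 in the control arrays.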

How the data were processed

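Total RNA of 2 knockout and 2 control VSMC cultures was amplified from 10 ng and hybridised to Mouse Gene ST 2.1 arrays, per the labels' protocols and the design text. The deposited values are log2 expression per transcript cluster, made by the authors with RMA (per the submitters' processing notes). Their range, 1.17 to 12.4, is that of log values, and RMA values are on base 2. Software version, chip definition and genome build: not given in the sources used here.

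Of 41345 rows, 23521 had 1 symbol in the platform annotation, 1814 several and 16010 none. For the 1082 genes with several rows the row with the highest mean was kept. Genes under the median row mean were left out, and limma 3.58.1 under R 4.3.3 (lmFit, then eBayes) fitted the rest as knockout minus control, with Benjamini-Hochberg adjustment over 12550 genes. On simulated data for this comparison with 12550 genes it called 2 of 50 genes shifted by 1 log2 unit, 39 of 50 shifted by 2, 48 of 50 by 3 and 49 of 50 by 4, with 10 false calls. All these shifts were planted together, and many strong shifts loosen the adjusted cut-off, so the shares need not hold for the real data. In the real fit Ptprb, at -2.88, and Cd200r1, at 2.35, were not called. Plots were drawn with matplotlib 3.10.9. Sequencing depth does not apply, so precision is limited by the number of arrays. The design text names 2 separate pairs of mice, so p-values rest on a spread between arrays in which mouse, culture and hybridisation vary at once.

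The genes and lists were chosen with earlier results of these data known. All 44 genes are accounted for. Mmp14, Tagln and Apoe are always named, with up to 4 separated genes of largest difference per other list, of which the text names those of the main lists. Cd200, Gas6, Acta2, S100a8, Kdr, Vwf, Flt1, Lum and Dcn fall outside this rule and were named after their values were seen. So were Itgax, Itgal, Fgr, Plac8, Ly6c2, Ptpn11, Syk, Pdpn and Prox1. Of the title numbers, deviations of same-numbered arrays were close to uncorrelated over all genes tested (r = 0.045). Single sets of genes could still shift together. The proliferation list averaged higher in replicate 2 of both groups, with 5.58 and 6.85 in the knockout arrays and 6.04 and 6.66 in the control arrays. The labels do not say that a number marks a pair. Alternatives were the title number as a block, other filters, a second normalisation, centring, the mean of all rows, eBayes with trend or robust estimation, array weights, and leaving out each array.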

Additional observations from a re-analysis of the deposited data

Results flagged for a closer look

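Cd300lf shared a pair of further rows with its relatives Cd300ld3, Cd300ld4 and Cd300ld5, which are outside the comparison because they carry several symbols. In both, the knockout arrays lay above the controls. The first read 7.51 and 7.59 in the knockout arrays, against 6.25 and 6.77 in the control arrays, a log2 difference of 1.04. The second read 7.63 and 7.64 in the knockout arrays, against 6.24 and 6.74 in the control arrays, a difference of 1.15. The row of Cd300lf alone differed by 0.72. Which of these genes the shared rows read was not tested.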

How the results depend on the processing

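Under all 13 alternatives limma called 0 genes, and the lowest adjusted p of a receptor-set gene was 0.0764 (limma, eBayes with trend and robust estimation). The title number as a replicate block gave 0 genes called, a median difference of 1.15 and 26 of the 38 genes at an unadjusted p under 0.05. The median over the tested genes was 1.53 without knockout replicate 1 and 0.82 without knockout replicate 2, and from 1.06 to 1.24 under the alternatives that keep all arrays. Without knockout replicate 2, 30 of the 38 genes had a higher mean. Leaving out arrays gave 30 to 37 genes wholly above the controls. This count cannot fall when an array is left out, so it is no check on the 30 found with all arrays. With any array left out, 7 of 7 roles had a median above 0. With the filter at the 75th percentile 6 roles had a median above 0, since Cd86 was no longer tested and Cd80 alone stood for the costimulatory ligands. Of the 38 genes, 31 kept their direction under every alternative. The 7 that did not changed it only when an array was left out: Fcgr4 (-0.39 to 1.80), Clec4a2 (-0.086 to 0.49), Clec4n (-1.82 to 1.99), Clec7a (-1.09 to 2.28), Cd33 (-0.10 to 2.36), Havcr2 (-0.11 to 0.74) and Mertk (-0.33 to 0.98). Tagln ran from -0.36 to 0.34. All 7 were lower without knockout replicate 2, and Clec4n also without control replicate 2, at -0.58.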

Other observations

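Some leukocyte genes outside the receptor set also had a much higher value on knockout array 2 than on knockout array 1. Itgax, which encodes the integrin CD11c, had 6.28 and 8.75 in the knockout arrays, against 5.54 and 6.90 in the control arrays. Itgal, the α chain of the leukocyte integrin LFA-1, had 3.25 and 5.63 in the knockout arrays, against 4.53 and 3.92 in the control arrays. Fgr, a Src family kinase of myeloid cells, had 2.99 and 5.34 in the knockout arrays, against 3.12 and 2.95 in the control arrays. In each of them the groups overlapped.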
